A study of Mus musculus with 12 samples.

Results

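The 10 chemokine genes described here, Ccl2, Ccl5, Ccl7, Ccl20, Cxcl1, Cxcl5, Cxcl10, Cxcl12, Cxcl16 and Cx3cl1, were measured on 12 microarrays of RNA from primary mouse embryonic fibroblasts (MEFs). They were taken as a list of chemokines known to be made by fibroblasts, and were chosen with earlier results of these data known. Each was represented by its probe set of highest mean over the 12 arrays among those annotated to a single gene symbol. All 10 of the 10 were measured among 17097 genes. The MEFs came from e14.5 embryos of C57Bl/6 x 129Sv (F1) background and were wild type or were compound homozygous for conditional CBP and p300 alleles, whose products are related lysine acetyltransferases and coactivators of many transcription factors. All plates of both genotypes, at passage 4, received adenovirus expressing Cre recombinase at a multiplicity of infection of 100, so that the conditional cells became double knockouts (dKO) while the controls had the virus as well. The virus was left for 16 h in 3% O2, followed by 48 h in 3% O2 and 24 h in normoxia. Plates then received 100 µM 2',2'-dipyridyl (DP), an iron chelator used to mimic hypoxia, or the ethanol vehicle for 3 h. This gave 4 groups of 3 arrays, from wild-type MEFs 3, 4 and 5 and dKO MEFs 1, 5 and 6, and each MEF line was split between both treatments. Deletion was thus made by infection of cultures, and the share of cells that still held an intact allele is not stated in the labels. The p-values rest on the spread between arrays within groups, shared over all 4 groups, and leave the pairing of treatments within a MEF line unused unless stated. Each genotype had 3 MEF lines, and precision is limited by the number of arrays.

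Chemokines are small secreted proteins that guide leukocytes along concentration gradients by binding G protein-coupled receptors on those cells. Fibroblasts act as sentinel cells that make many of them, and transcription of the inflammatory members is driven largely by NF-kB and, for some, by interferon-regulated factors, for which CBP and p300 serve as coactivators. The 10 genes fall into ligands that recruit monocytes through CCR2 (Ccl2, Ccl7), ligands that recruit neutrophils through CXCR2 (Cxcl1, Cxcl5), ligands for lymphocyte and dendritic cell receptors (Ccl5, Ccl20, Cxcl10), the largely constitutive stromal ligand of CXCR4 (Cxcl12) and the transmembrane chemokines that can be shed from the cell surface (Cxcl16, Cx3cl1).

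RefSeq promoter windows of the GRCm38.p6 build, running from 250 bases before to 50 bases after the annotated start of transcription, were at hand for 5 of the 10 genes: Ccl20, Cxcl1, Cxcl10, Cxcl12 and Cx3cl1. The windows of 4 of them are shown 5′ to 3′ on the gene's own strand. They stand for 1 gene that fell with DP in wild type and differed strongly by genotype (Cxcl1). They also stand for 2 genes that differed moderately by genotype (Ccl20, Cxcl10) and the most modestly affected stromal gene (Cxcl12). Of these 2, Ccl20 also fell with DP in wild type. Capitals mark every match to the motifs searched on both strands, which were the NF-kB consensus, the interferon-stimulated response element (GAAA, any 2 bases and GAAA), the AP-1 motif TGANTCA, the HIF core motifs ACGTG and GCGTG, the CRE core TGACG and the TATA motif TATAAA. The windows lie at chr5:90890995-90891294 (Cxcl1, plus strand), chr5:92348840-92349139 (Cxcl10, minus strand), chr1:83116516-83116815 (Ccl20, plus strand) and chr6:117168285-117168584 (Cxcl12, plus strand).
Cxcl1: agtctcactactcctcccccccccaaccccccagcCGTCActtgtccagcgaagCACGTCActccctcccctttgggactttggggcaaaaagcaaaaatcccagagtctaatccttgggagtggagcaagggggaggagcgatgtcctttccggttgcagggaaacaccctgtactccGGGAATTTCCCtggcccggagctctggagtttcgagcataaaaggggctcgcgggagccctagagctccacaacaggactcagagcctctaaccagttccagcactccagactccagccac
Cxcl10: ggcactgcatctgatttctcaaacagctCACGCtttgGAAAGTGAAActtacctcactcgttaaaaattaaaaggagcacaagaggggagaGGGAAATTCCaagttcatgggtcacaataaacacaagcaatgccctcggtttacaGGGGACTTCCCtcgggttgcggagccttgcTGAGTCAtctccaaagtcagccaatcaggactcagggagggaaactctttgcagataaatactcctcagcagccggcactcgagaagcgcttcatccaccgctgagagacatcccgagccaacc
Ccl20: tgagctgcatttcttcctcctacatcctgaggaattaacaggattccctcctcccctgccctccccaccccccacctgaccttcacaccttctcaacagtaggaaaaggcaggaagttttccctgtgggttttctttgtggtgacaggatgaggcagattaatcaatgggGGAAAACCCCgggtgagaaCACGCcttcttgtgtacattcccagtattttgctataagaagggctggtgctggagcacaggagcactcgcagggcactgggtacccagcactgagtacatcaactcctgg
Cxcl12: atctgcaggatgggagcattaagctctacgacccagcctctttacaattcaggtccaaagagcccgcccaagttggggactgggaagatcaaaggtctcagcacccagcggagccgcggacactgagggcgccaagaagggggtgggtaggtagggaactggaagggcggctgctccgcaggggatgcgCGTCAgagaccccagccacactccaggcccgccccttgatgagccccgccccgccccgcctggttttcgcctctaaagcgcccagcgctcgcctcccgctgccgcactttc

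The NF-kB consensus was present in 3 of the 5 windows, against 8.46% of all 32851 promoter windows in the RefSeq table. In Cxcl1 it began 71 bases before the start and matched on both strands, the second match being offset by 1 base. Cxcl10 held a match that began 159 bases before the start and a pair of overlapping matches at 104 and 103 bases, and Ccl20 held 1 match on the opposite strand at 80 bases. The interferon-stimulated response element, found in 3.44% of all windows, occurred only in Cxcl10 among the 5, beginning 213 bases before the start, and so did the AP-1 motif (74 bases before the start, 7.81% of all windows). The HIF core ACGTG was found in Cxcl1, overlapping 1 of its CRE cores (19.6% of all windows), and GCGTG in Ccl20 and Cxcl10 (32.4% of all windows). The CRE core occurred in Cxcl1 and Cxcl12 (20.8% of all windows), and Cx3cl1 held only TATAAA, 6 bases before the annotated start (13.6% of all windows). These are letter matches in the windows and do not show that any factor was bound.

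The deposited values are log2 intensities, and a group mean was called near blank when it was at or below 3.92 log2, the highest 95th percentile of the 23 blank control probe sets on any array. That percentile was 3.54 to 3.92 in wild-type and 3.08 to 3.44 in dKO arrays, and the difference in log2 signal between the 3′ and 5′ beta-actin probe sets was 0.23 to 0.25 in wild type with ethanol, 0.28 to 0.38 in wild type with DP, 0.40 to 0.45 in dKO with ethanol and 0.48 to 0.60 in dKO with DP. Both measures thus moved with genotype. The beta-actin difference, a sign of RNA quality, also moved with DP: it was larger with DP in every line, and the treatments did not overlap in either genotype. The same difference for GAPDH was -0.03 to 0.15 in wild type with ethanol and 0.04 to 0.17 with DP. In dKO the GAPDH difference was 0.19 to 0.21 with ethanol and 0.10 to 0.19 with DP. For GAPDH only wild-type line 3 had a larger difference with DP. The part of these measures in the genotype and DP results was not tested. The CBP gene Crebbp differed in dKO by -0.85 ± 0.16 log2 in ethanol (SE, n = 3 per group; limma adjusted p = 0.000992) and by -0.76 ± 0.16 under DP (0.0022). The position of its probe set relative to the deleted part was not given in the sources used here, and Ep300 was not analysed here. Xist lay between 10.28 and 10.75 log2 in the wild-type arrays and between 3.94 and 5.32 in dKO, while Y-linked Eif2s3y was at 2.49 to 3.29 and 7.08 to 8.93, so the sex of the embryos and the genotype cannot be told apart. A pair of ethanol arrays, wild-type MEF 5 and dKO MEF 1, deviated from their groups in the same genes (correlation of deviations 0.844 over 8917 genes). Calls of the 10 chemokines that change without these 2 arrays are stated.

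All 12 fibroblast markers examined were lower in dKO with both treatments (14.1% of all genes were called lower in ethanol and 16.9% under DP), among them Dcn by 3.73 ± 0.29 and Lum by 3.53 ± 0.33 log2 in ethanol, both encoding matrix proteoglycans. The summed linear level of the 12 markers was 43159 to 44073 in wild-type and 14504 to 18989 in dKO ethanol arrays, and none of the markers was called with DP in either genotype (limma; none had an unadjusted p below 0.05). In bulk RNA of this kind, fewer cells of a type and less RNA per cell cannot be told apart.

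The dKO MEFs had less RNA for 9 of the 10 chemokines than wild-type MEFs, with either treatment. The 4 largest differences in ethanol were those of the monocyte attractants Ccl2 (14.2-fold) and Ccl7 (11.3-fold) and the neutrophil attractants Cxcl5 (13.9-fold) and Cxcl1 (10.9-fold). Ccl20, Ccl5, Cxcl10, Cx3cl1 and Cxcl12 were lower by 1.78-fold to 3.54-fold, and Cxcl16 was the exception, with a higher mean in dKO that did not pass the test. In wild-type MEFs, 3 h of DP lowered Ccl7 (3.70-fold), Cxcl1 (2.76-fold), Ccl2 (2.43-fold) and Ccl20 (1.61-fold), and in dKO MEFs it lowered Ccl7 (3.16-fold) and Ccl2 (1.78-fold) from already reduced levels. Group means fell in the order wild type with ethanol, wild type with DP, dKO with ethanol and dKO with DP in 8 of the 10 genes. This order counts DP steps that did not pass the test, such as -0.05 log2 for Cxcl12 in wild type. Its share over all genes was not computed.

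**Figure D1:**
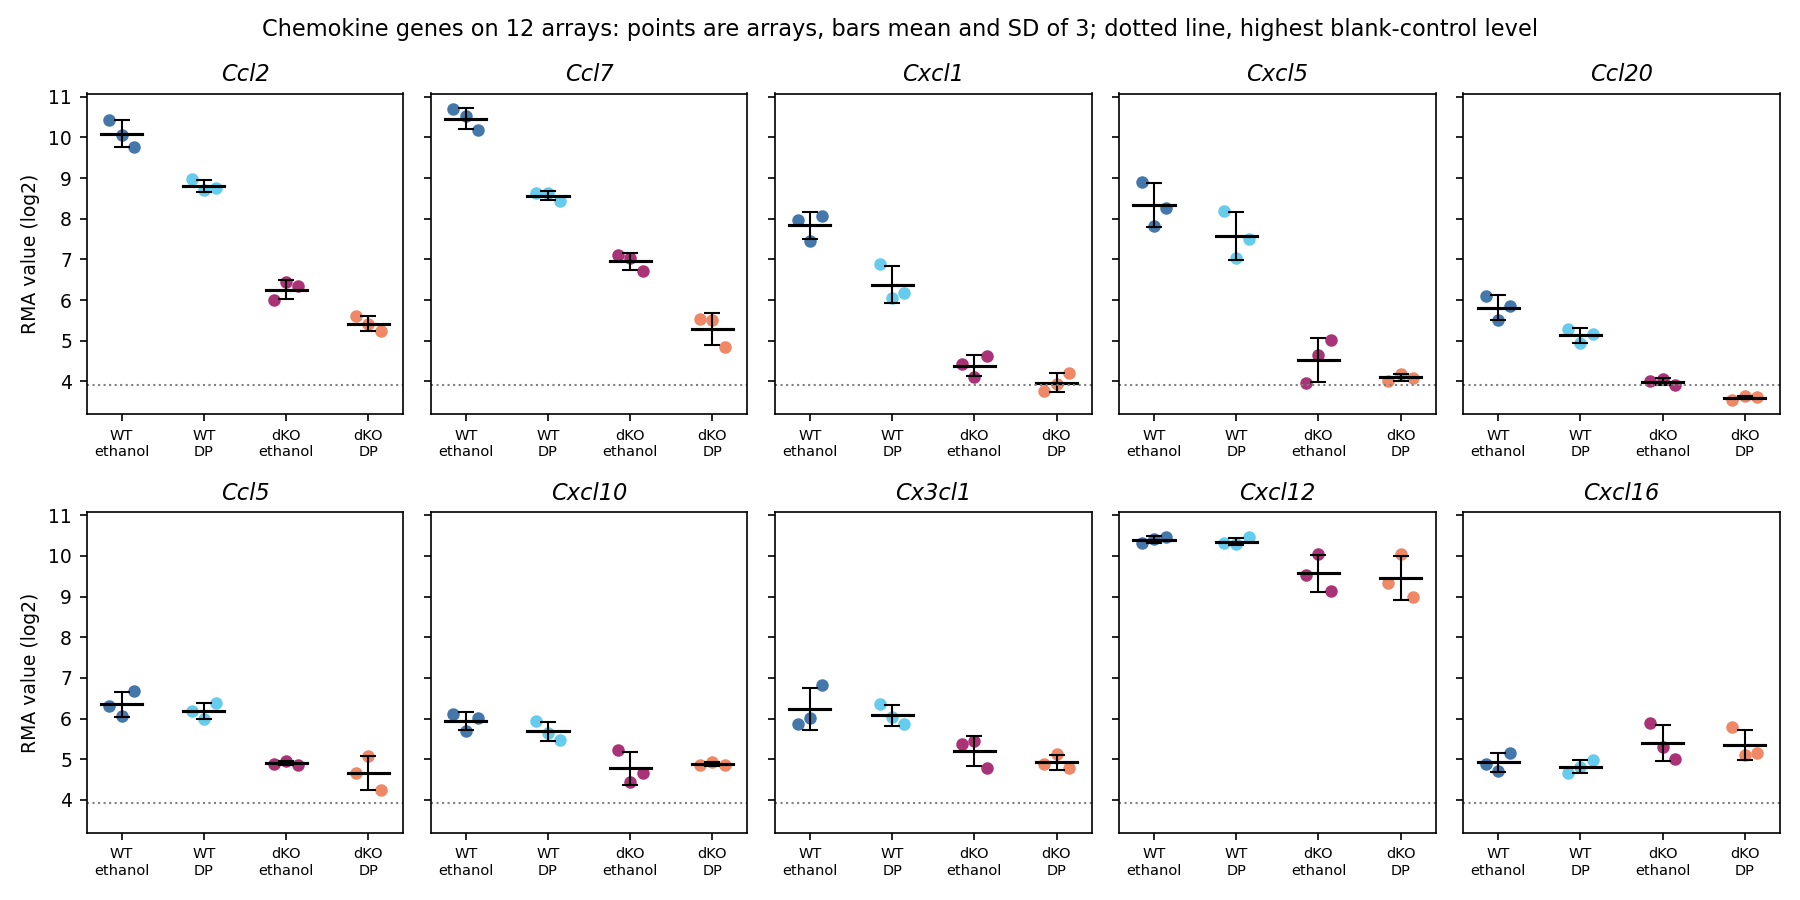
Log2 RMA values (y axis) of the 10 chemokine genes in the 4 groups (x axis), with a point per array, a bar at the mean of 3 arrays and whiskers of 1 SD; the dotted line is the blank level of 3.92. Ccl2, Ccl7, Cxcl1 and Cxcl5 step down from wild type to dKO by more than 3 log2 units in ethanol, Cxcl12 by 0.83, and the Cxcl16 means are higher in dKO.

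A gene was called at a limma adjusted p under 0.05 over all 17097 genes. In ethanol, 9 of 10 chemokines were called lower in dKO and none higher, against a background of 14.1% of all genes called lower (33.6% called in either direction), and their median difference was -1.63 log2 against -0.01 over all genes. Under DP, again 9 of 10 were called lower, with 16.9% of all genes called lower (35.4% in either direction) and a median of -1.53 against -0.01. Differences of -3 log2 or beyond were seen in 4 members in ethanol and in 0.292% of all genes. The wild-type and dKO arrays did not overlap in any of the 9 lower genes with either treatment, whereas 18.8% of all genes in ethanol and 25.3% under DP were lower without overlap. Without the 2 deviating ethanol arrays the count in ethanol was 8, the gene lost being Cxcl12. Under DP all 10 were then called, 9 lower and Cxcl16 higher. Because the list was chosen with earlier results of these data known, the shares beside all genes describe it and do not test it.

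**Figure D2:**
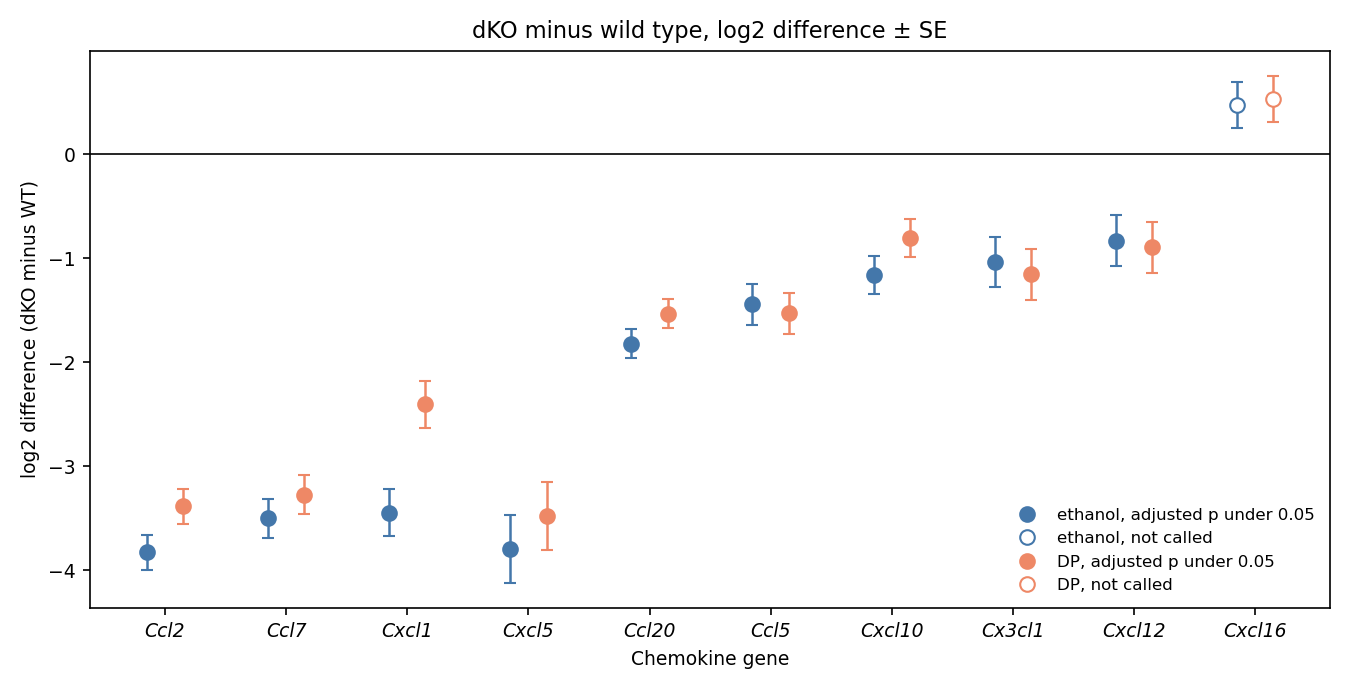
Log2 difference of dKO minus wild type (y axis) for each chemokine gene (x axis), in ethanol and under DP, with bars of 1 SE and filled points for an adjusted p under 0.05. Of the 10 genes, 9 lie below 0 with filled points under both treatments, from -3.83 for Ccl2 in ethanol to -0.80 for Cxcl10 under DP, and Cxcl16 lies above 0 with open points.

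Ccl2, also known as MCP-1 and the main ligand of CCR2, was at 10.43, 10.07 and 9.77 log2 in wild-type lines 3, 4 and 5 with ethanol and at 8.97, 8.71 and 8.75 with DP. The dKO lines 1, 5 and 6 stood at 5.99, 6.45 and 6.34 with ethanol and at 5.62, 5.42 and 5.23 with DP. The 4 groups did not overlap, and even the highest dKO array lay 3.32 log2 below the lowest wild-type array in ethanol. The dKO level was lower by 3.83 ± 0.17 log2 in ethanol (7.03% of wild type, adjusted p = 1.56e-08) and by 3.39 ± 0.17 under DP (4.63e-08). DP lowered Ccl2 in wild type by 1.28 ± 0.17 log2 (adjusted p = 0.000511), with a fall of 1.02 to 1.45 in the 3 lines. The fall in dKO was 0.83 ± 0.17 log2 (adjusted p = 0.0297) and ranged from 0.37 in line 1 to 1.10 in line 6. This last call was not firm, since it was lost when dKO ethanol array 5 or 6, dKO DP array 5 or 6 or wild-type DP array 5 was left out (adjusted p = 0.0759, 0.109, 0.1, 0.144 and 0.0503), after cyclic loess (0.0853) and when the dKO arrays were fitted alone (0.061).

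Ccl7 (MCP-3), a second CCR2 ligand, had the largest fall with DP of the 10 genes in both genotypes. Its values were 10.69, 10.51 and 10.17 log2 in wild-type lines 3, 4 and 5 with ethanol and 8.62, 8.64 and 8.45 with DP. For dKO lines 1, 5 and 6 the values were 7.11, 7.03 and 6.72 with ethanol and 5.54, 5.51 and 4.84 with DP. No 2 groups overlapped, and every line fell. The fall was 1.89 ± 0.19 log2 in wild type (27.0% of the ethanol level left, adjusted p = 3.46e-05) and 1.66 ± 0.19 in dKO (31.6% left, adjusted p = 0.000285), and the latter was the most negative DP change in dKO among all 17097 genes. Against wild type, dKO was lower by 3.50 ± 0.19 log2 in ethanol (adjusted p = 5.71e-08) and by 3.27 ± 0.19 under DP (8.98e-08). All 4 calls held in every refit, with the DP change between -2.03 and -1.77 in wild type and between -1.78 and -1.43 in dKO.

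Cxcl1 (KC), a ligand of the neutrophil receptor CXCR2, was at 7.97, 7.46 and 8.07 log2 in wild-type lines 3, 4 and 5 with ethanol and at 6.89, 6.05 and 6.17 with DP. Its dKO values in lines 1, 5 and 6 were 4.43, 4.12 and 4.62 with ethanol and 3.75, 3.95 and 4.21 with DP. The wild-type groups stood apart from each other and from dKO, while the dKO groups overlapped and the dKO DP mean of 3.97 lay just above the blank level. DP lowered Cxcl1 in wild type by 1.46 ± 0.23 log2 (adjusted p = 0.00168), and the dKO change of -0.42 ± 0.23 did not pass (0.413), although all 3 dKO lines had the lower value with DP. The genotype difference was -3.45 ± 0.23 in ethanol (adjusted p = 2.65e-07) and -2.40 ± 0.23 under DP (3.9e-06).

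Cxcl5 (LIX), a further CXCR2 ligand, varied more between lines. It was at 8.90, 7.83 and 8.26 log2 in wild-type lines 3, 4 and 5 with ethanol and at 8.20, 7.04 and 7.50 with DP. In dKO lines 1, 5 and 6 it was at 3.95, 4.64 and 5.02 with ethanol and at 4.02, 4.19 and 4.09 with DP. The genotypes did not overlap, but within each genotype the treatments did. In wild type, line 3 was high and line 4 low with both treatments, and in dKO, line 1 was the lowest with either treatment and slightly higher with DP. Against wild type, dKO was lower by 3.79 ± 0.33 log2 in ethanol (adjusted p = 2.07e-06) and by 3.48 ± 0.33 under DP (3.63e-06). The DP change in wild type was -0.75 ± 0.33 and did not pass without a block for the MEF line (adjusted p = 0.288). With the line as replicate block it passed (adjusted p = 0.0299), and each of the 3 lines had a lower value with DP, by 0.70 to 0.79 log2. In dKO the change was -0.44 ± 0.33 (adjusted p = 0.551).

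Ccl20, the ligand of CCR6 on dendritic cells and Th17 cells, was at 6.10, 5.50 and 5.85 log2 in wild-type lines 3, 4 and 5 with ethanol and at 5.29, 4.94 and 5.17 with DP. Its dKO values of 4.01, 4.06 and 3.91 with ethanol and 3.55, 3.64 and 3.61 with DP in lines 1, 5 and 6 were close to the blanks, and the dKO DP mean of 3.60 was the only group mean of the 10 genes in the near-blank range. Ccl20 was lower in dKO by 1.82 ± 0.14 log2 in ethanol (adjusted p = 8.84e-07) and by 1.53 ± 0.14 under DP (3.06e-06). DP lowered it in wild type by 0.69 ± 0.14 log2 (adjusted p = 0.0118), in all 3 lines, but not past the threshold without wild-type DP array 4 (0.0679) or in a fit of only the wild-type arrays (0.0598). The change in dKO was -0.39 ± 0.14 (adjusted p = 0.246), with no overlap of the groups.

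Ccl5 (RANTES), which attracts T cells and monocytes, differed by genotype and not detectably by DP. It was at 6.30, 6.07 and 6.67 log2 in wild-type lines 3, 4 and 5 with ethanol and at 6.19, 6.00 and 6.37 with DP. In dKO lines 1, 5 and 6 it was at 4.88, 4.96 and 4.87 with ethanol and at 4.66, 5.08 and 4.24 with DP. The dKO level was lower by 1.44 ± 0.20 log2 in ethanol (adjusted p = 8.28e-05) and by 1.53 ± 0.20 under DP (5.01e-05). Its DP change was -0.16 ± 0.20 in wild type (95% confidence interval -0.59 to 0.26) and -0.25 ± 0.20 in dKO (-0.67 to 0.18).

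Cxcl10 (IP-10), an interferon-inducible ligand of CXCR3 on T cells and the gene whose promoter window held both the interferon-stimulated response element and NF-kB matches, was at 6.10, 5.70 and 6.02 log2 in wild-type lines 3, 4 and 5 with ethanol and at 5.94, 5.64 and 5.48 with DP. In dKO lines 1, 5 and 6 it was at 5.23, 4.44 and 4.67 with ethanol and at 4.85, 4.94 and 4.86 with DP. Every dKO array lay below every wild-type array. The genotype difference was -1.16 ± 0.18 log2 in ethanol (adjusted p = 0.000295) and -0.80 ± 0.18 under DP (0.00428). The DP changes of -0.26 ± 0.18 in wild type (95% confidence interval -0.66 to 0.14) and 0.10 ± 0.18 in dKO (-0.30 to 0.50) did not pass. The dKO line 1 ethanol array, which stood apart over many genes, was the highest of its group here, 0.67 log2 above the mean of the other two.

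Cxcl12 (SDF-1), the stromal CXCR4 ligand that retains stem cells and lymphocytes in tissues, was at 10.32, 10.41 and 10.48 log2 in wild-type lines 3, 4 and 5 with ethanol and at 10.31, 10.29 and 10.46 with DP. The dKO lines 1, 5 and 6 had 9.53, 10.05 and 9.13 with ethanol and 9.34, 10.05 and 8.99 with DP. The wild-type lines were close together, whereas the dKO lines kept the same order with both treatments and spread more widely (SD of 0.46 with ethanol and 0.54 with DP, against 0.08 and 0.09 in wild type, n = 3 each). The genotype difference was -0.83 ± 0.25 log2 in ethanol (adjusted p = 0.0194) and -0.89 ± 0.25 under DP (0.0128). In ethanol it did not pass without the 2 deviating arrays (0.0868), without wild-type ethanol array 5 (0.0502) or without dKO ethanol array 6 (0.095), and under DP it did not pass without dKO DP array 6 (0.0635). A second Cxcl12 probe set was also lower, at -1.01 ± 0.27 log2 in ethanol (adjusted p = 0.0122 over all probe sets) and -1.17 ± 0.27 under DP (0.00494), while the third, with a mean of 3.51 log2 in the blank range, was not called. The DP changes were -0.05 ± 0.25 in wild type (95% confidence interval -0.58 to 0.49) and -0.11 ± 0.25 in dKO (-0.65 to 0.42).

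Cxcl16, a transmembrane ligand of CXCR6 that also acts as a scavenger receptor, was the only gene of the 10 with higher means in dKO. Its values were 4.89, 4.71 and 5.16 log2 in wild-type lines 3, 4 and 5 with ethanol and 4.67, 4.82 and 4.97 with DP. The dKO values in lines 1, 5 and 6 were 5.88, 5.30 and 5.01 with ethanol and 5.79, 5.11 and 5.16 with DP. Line 1 was the highest dKO line with both treatments, and the genotypes overlapped in ethanol but not under DP. The differences of 0.48 ± 0.22 log2 in ethanol (adjusted p = 0.126) and 0.53 ± 0.22 under DP (0.0842) did not pass. A second probe set was higher in dKO by 0.65 ± 0.15 log2 in ethanol (adjusted p = 0.00511 over all probe sets) and by 0.45 ± 0.15 under DP (0.0374), and with the mean of both probe sets the gene passed with both treatments (adjusted p = 0.0166 and 0.0324). In ethanol it also passed without dKO ethanol array 6 (0.0458), and under DP without dKO ethanol array 1 (0.0322), without the 2 deviating arrays (0.0247) and in a fit of only the DP arrays (0.0409).

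Cx3cl1 (fractalkine), a membrane-anchored ligand of CX3CR1 on monocytes, was at 5.87, 6.01 and 6.83 log2 in wild-type lines 3, 4 and 5 with ethanol and at 6.36, 6.03 and 5.86 with DP. In dKO lines 1, 5 and 6 it was at 5.38, 5.45 and 4.78 with ethanol and at 4.87, 5.13 and 4.78 with DP. The ethanol array of wild-type line 5, one of the deviating pair, was the highest, 0.89 log2 above the mean of the other two. Cx3cl1 was lower in dKO by 1.04 ± 0.24 log2 in ethanol (adjusted p = 0.00493) and by 1.15 ± 0.24 under DP (0.00236). Its second probe set, at a mean of 3.94 log2, was not called in ethanol (-0.16 ± 0.11) and was lower under DP (-0.46 ± 0.11, adjusted p = 0.00772 over all probe sets). DP moved Cx3cl1 by -0.16 ± 0.24 in wild type and -0.28 ± 0.24 in dKO, neither past the threshold, and the wild-type value was 0.14 without the line 5 ethanol array.

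Across the 10 genes, DP lowered 4 in wild type, against a background of 1.67% of all genes called lower (4.73% in either direction), and 2 in dKO, against 0.491% called lower (1.5% in either direction). The median DP change of the 10 was -0.47 log2 in wild type and -0.34 in dKO, against -0.03 and -0.05 over all genes. Wild-type groups stood apart with DP lower in 4 members (13.6% of all genes), and dKO groups in 3 (14.4% of all genes). These shares too describe a list chosen with earlier results known and are no test of it. The genotype and the DP comparisons share arrays, so their values are given side by side and not correlated. The genes lowered by DP in wild type were both CCR2 ligands, the CXCR2 ligand Cxcl1 and the CCR6 ligand Ccl20, and neither the stromal Cxcl12 nor the transmembrane chemokines were called. Nor were Ccl5 and Cxcl10, or the other CXCR2 ligand Cxcl5 in the fit without a block for the MEF line. The dKO count was 1 (Ccl7) after cyclic loess, with the dKO arrays fitted alone and when any of the 5 arrays named for Ccl2 was left out.

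**Figure D3:**
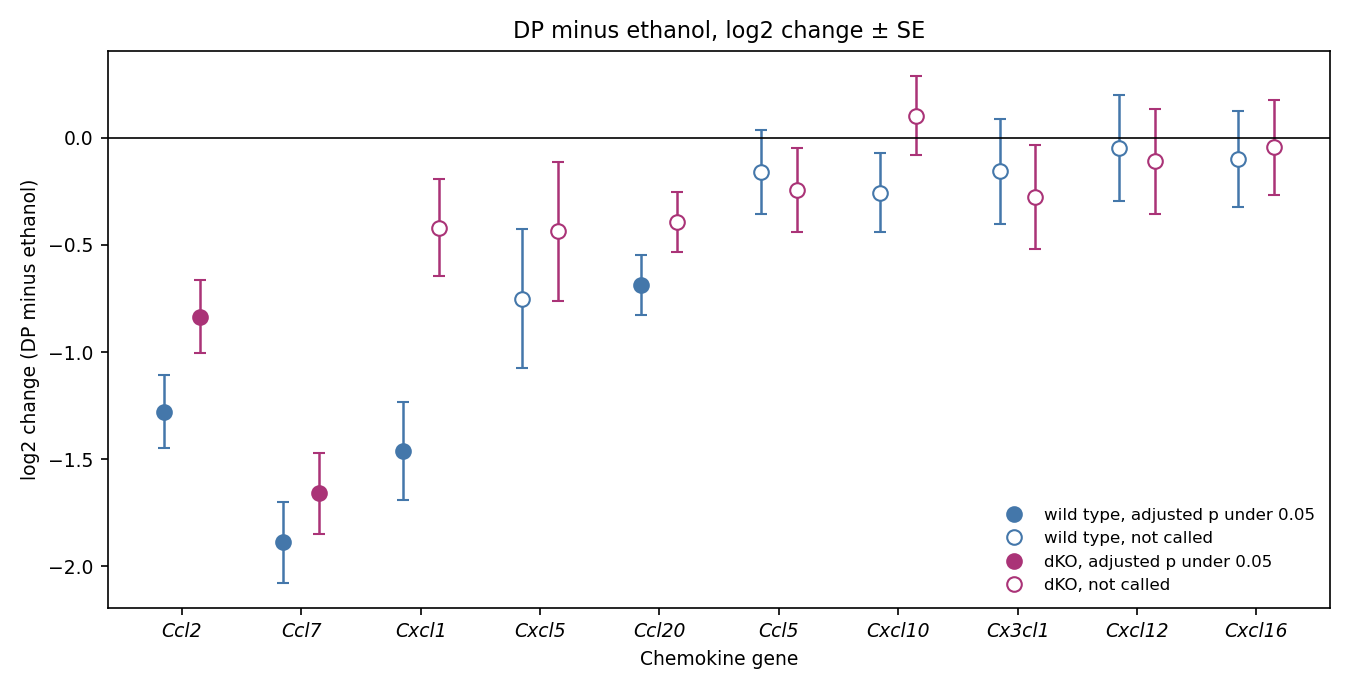
Log2 change of DP minus ethanol (y axis) for each chemokine gene (x axis) in wild-type and dKO MEFs, with bars of 1 SE and filled points for an adjusted p under 0.05. Filled points below 0 are Ccl2, Ccl7, Cxcl1 and Ccl20 in wild type and Ccl2 and Ccl7 in dKO, and the largest gap between genotypes is at Cxcl1.

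Whether DP acted differently in the genotypes was tested as the difference of the DP effects, dKO minus wild type. None of the 10 chemokines passed in limma (0.562% of all genes did), and 1 of the 10, Cxcl1, had an unadjusted p below 0.05. For Cxcl1 the difference was 1.04 ± 0.32 log2 (95% confidence interval 0.35 to 1.74, unadjusted p = 0.00667, adjusted p = 0.399), the fall being smaller in dKO. The dKO ethanol mean of Cxcl1 lay 0.47 log2 above the blank level of 3.92, which came from a wild-type array. On the dKO ethanol arrays themselves the 95th percentile of the blanks was 3.26 to 3.44. Whether low signal limited the fall in dKO was not tested. Refits gave 0.88 to 1.30 for this difference and adjusted p-values of 0.0906 to 0.809. The difference was 0.44 ± 0.24 for Ccl2 (95% confidence interval -0.08 to 0.97) and 0.23 ± 0.27 for Ccl7 (-0.35 to 0.80), so a smaller fall of Ccl2 in dKO was not detectable with 3 lines per genotype.

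The genes whose mean-centred profile over the 12 arrays lay closest to each chemokine were taken by root mean square (RMS) difference, a description for which no test was made. Ccl2 was closest to Cxcl5 (RMS difference 0.387 log2), Ccl7 (0.428) and Syt13 (0.466), a synaptotagmin gene, and Ccl7 was closest to Ccl2, Cxcl1 (0.655) and Clec2d (0.662). The nearest profiles to Cxcl1 were those of Ahr (0.387), encoding the aryl hydrocarbon receptor, Clec2d (0.427) and the cytokine gene Il6 (0.429). Il6 was lower in dKO by 3.33 ± 0.27 log2 in ethanol and fell by 1.97 ± 0.27 with DP in wild type, and Ahr was lower by 3.26 ± 0.21 and fell by 1.62 ± 0.21. Cxcl5 lay closest to Ccl2 and to its chromosomal neighbour Ppbp (0.399). Genes nearest to the members with smaller genotype differences were Rap1gap2 for Ccl20 (0.137), Thbs3 for Ccl5 (0.133), Speg for Cxcl10 (0.15), Fbln5 for Cxcl12 (0.171) and Slc7a7 for Cx3cl1 (0.187).

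Several of the chemokine genes are neighbours on mouse chromosomes 11 and 5, and the genes beside them in RefSeq order were looked up after the chemokine values had been seen. The Ccl2 run on chromosome 11 holds Ccl2, Ccl7, Ccl11, Ccl12, Ccl8 and Ccl1. Of these 6 genes, 5 were lower in dKO in ethanol and the same number under DP (14.1% and 16.9% of all genes were called lower), with Ccl8 lower by 3.19 ± 0.15 log2 and Ccl11 (eotaxin) by 2.04 ± 0.15 in ethanol, and Ccl1 not called. Ccl12, among the 5, was near blank in every group, with means from 3.49 log2 in wild type with ethanol to 2.58 in dKO with DP, where the blanks were lower in dKO as well. The measured genes flanking this run, Asic2, Tmem132e and Cct6b, differed by 0.00 ± 0.15, -0.13 ± 0.15 and -0.17 ± 0.13 in ethanol and were not called. With ethanol, Asic2 (means of 3.03 log2 in wild type and 3.03 in dKO), Cct6b (3.60 and 3.43) and the uncalled Ccl1 (3.23 and 2.95) were near blank. Tmem132e was at 4.47 and 4.33. A fall from such levels could hardly be seen, so these genes do not show where the genotype difference ends. In the Ccl5 run on the same chromosome (Ccl5, Ccl9, Ccl6, Ccl3 and Ccl4), 3 of 5 genes were lower in ethanol and 4 under DP, and Ccl9 was lower by 1.96 ± 0.26 log2 in ethanol. Ccl4, called only under DP, was near blank there in wild type and dKO (means of 3.61 and 3.16 log2).

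On chromosome 5 the CXCR2 ligand run holds Cxcl5, Ppbp, Pf4, Cxcl3, Cxcl15, Cxcl1 and Cxcl2, of which 6 were measured (Cxcl3 was not analysed here). Ppbp, a platelet basic protein gene whose cleaved product binds CXCR2, was lower in dKO by 3.92 ± 0.25 log2 in ethanol, the largest genotype difference among all chemokine genes measured, and had a DP change of 0.00 ± 0.25 in wild type. Of the 6 genes 3 were lower in ethanol and 5 under DP (14.1% and 16.9% of all genes were called lower). Pf4 and Cxcl15, called only under DP, had near-blank dKO means there (3.07 and 3.36 log2). Their wild-type means under DP were 4.80 and 4.00 log2. Cxcl2, another CXCR2 ligand, was in the near-blank range in wild type (mean 3.64 log2) and was not called in ethanol (-0.34 ± 0.13). The flanking gene Rassf6 was also lower, by 2.01 ± 0.24, while Mthfd2l on the other side was not called (0.22 ± 0.10). The run of Cxcl9, Art3 and Cxcl10 had 1 gene lower in ethanol (Cxcl10) and 2 under DP, where Cxcl9 was lower by 0.47 ± 0.15. The Cxcl9 means under DP were 3.95 log2 in wild type, just above the blank level, and 3.47 in dKO, below it.

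**Figure D4:**
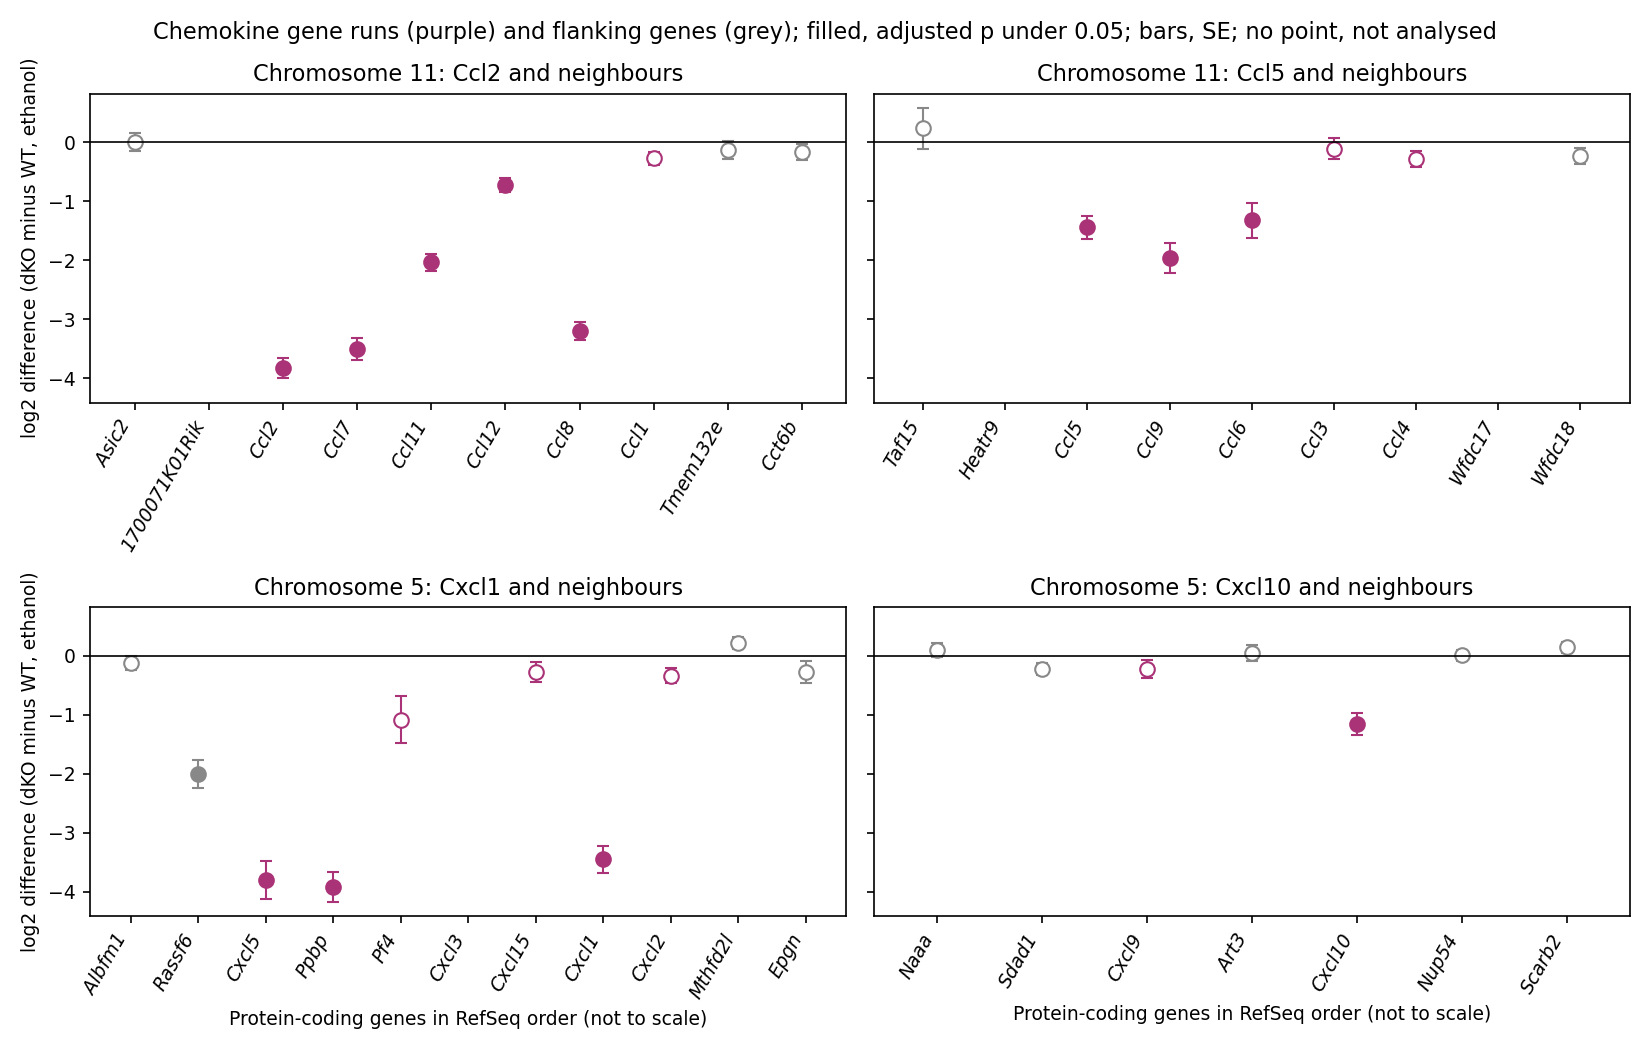
Log2 difference of dKO minus wild type in ethanol (y axis) for the genes of 4 chromosomal chemokine runs in RefSeq order, not to scale (x axis), with bars of 1 SE, filled points for an adjusted p under 0.05 and no point for genes not analysed. In the Ccl2 run 5 filled purple points, down to -3.83, lie between grey flanking genes near 0, whereas Rassf6, at -2.01, lies beside Cxcl5. Of the genes flanking the Ccl2 run, Asic2 and Cct6b were near blank in both genotypes with ethanol.

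Beyond the 10, 25 other chemokine genes were measured, 10 of them near blank in all groups. None of them was called with DP in either genotype (limma; 1 of 25 had an unadjusted p below 0.05 in each). In the genotype comparison 9 were lower and 1 higher in ethanol, and 12 lower and 1 higher under DP. Over all genes, 14.1% were called lower and 19.5% higher in ethanol, and 16.9% lower and 18.5% higher under DP. Besides Ppbp, Ccl8 and Ccl11, Cxcl14, which attracts monocyte lineage cells and is made by stromal and epithelial cells, was lower by 2.88 ± 0.28 log2 in ethanol. The higher gene was Ccl27a, a ligand of CCR10, at 1.07 ± 0.15 in ethanol and 0.69 ± 0.15 under DP.

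The receptors for these ligands sit mainly on leukocytes, and 16 of 18 measured receptor genes were near blank in all 4 groups. The exception with high signal was Ackr3 (CXCR7), the atypical receptor that binds and removes Cxcl12 and is itself expressed by stromal cells. It was between 7.47 and 7.99 log2 in wild type with ethanol and between 8.77 and 9.05 with DP, a rise of 1.22 ± 0.23 (adjusted p = 0.0062), so the groups did not overlap. In dKO it was between 5.14 and 5.82 with ethanol and between 5.64 and 6.56 with DP, a change of 0.57 ± 0.23 that did not pass (adjusted p = 0.294). The difference between those DP effects did not pass either (-0.64 ± 0.32, adjusted p = 0.88). Against wild type, Ackr3 was lower in dKO by 2.24 ± 0.23 log2 in ethanol and 2.88 ± 0.23 under DP. Of the 18 receptor genes, 2 were lower and 1 higher in ethanol and 4 were lower under DP, against 14.1% of all genes lower and 19.5% higher in ethanol and 16.9% lower under DP. Of the 4 lower under DP, Ccr4, Cx3cr1 and Cxcr6 were near blank in both genotypes.

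Among 9 genes for proteins that shed or cleave chemokines, none changed with DP (limma; 1 had an unadjusted p below 0.05 in wild type and 2 in dKO), and 4 were lower and 1 higher in dKO with either treatment, while 33.6% of all genes were called in either direction in ethanol and 35.4% under DP. Timp3, an inhibitor of the sheddases Adam10 and Adam17, was lower by 2.75 ± 0.12 log2 in ethanol. Mmp2, which cleaves Cxcl12 and Ccl7, was lower by 1.75 ± 0.14 and Mmp9 by 1.33 ± 0.29. Adam10 and Adam17, which release Cxcl16 and Cx3cl1 from the membrane, were not called in ethanol (0.14 ± 0.21 and 0.24 ± 0.15), and Rhbdf1, which supports Adam17 maturation, was higher by 0.41 ± 0.11.

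Of 22 NF-kB pathway genes measured, 5 were lower and 6 higher in dKO in ethanol, against 14.1% and 19.5% of all genes, with a median of 0.18 log2. The lower genes included the NF-kB cofactors Bcl3 (-2.40 ± 0.15) and Nfkbiz (-1.28 ± 0.15), the interleukin-1 receptor gene Il1r1 (-1.86 ± 0.23) and its antagonist Il1rn (-2.29 ± 0.23). The higher ones included the subunit genes Rela (0.55 ± 0.12) and Relb (0.68 ± 0.14) and the inhibitor Nfkbie (1.03 ± 0.17). With DP, Tnfaip3, which encodes the NF-kB inhibitor A20, rose by 1.78 ± 0.10 log2 in wild type (adjusted p = 1.71e-07) and by 1.81 ± 0.10 in dKO (3.32e-07). The list had 1 gene called lower and 1 higher in wild type and 2 higher in dKO. Over all genes, 4.73% were called in either direction in wild type and 1.5% in dKO. The lower gene, Myd88, lost its call without wild-type ethanol array 5 or wild-type DP array 4 or 5 (limma adjusted p = 0.0554, 0.0938 and 0.0551).

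Of 20 interferon regulatory factor (IRF), STAT and C/EBP pathway genes, 1 was lower and 6 were higher in dKO in ethanol, against 14.1% and 19.5% of all genes. Cebpb, encoding a transcription factor of inflammatory genes, was lower by 1.06 ± 0.13 log2. Irf5 (1.10 ± 0.21), Irf2 (0.80 ± 0.12) and Irf7 (0.78 ± 0.17) were higher. Under DP, 3 were lower and 5 higher in dKO, against 16.9% and 18.5%.

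Markers of other cells were read beside the chemokines, because macrophages also make Ccl2, Ccl7 and Cxcl1. The defining leukocyte and macrophage genes Ptprc, Itgam and Adgre1 had group means of 2.74 to 3.81 log2, in the near-blank range. They were the 3 of the 11 markers near blank in all groups, while 6 were above it in all groups, among them Cd68 (means of 5.32 to 6.95 log2), Cd14 (5.08 to 6.11) and Csf1r (4.47 to 5.18). Lyz2, the lysozyme gene of macrophages and neutrophils, was lower in dKO by 3.41 ± 0.59 log2 in ethanol and by 3.59 ± 0.59 under DP, and varied in wild-type ethanol arrays from 6.77 to 8.88. Of the 11 markers measured, 4 were lower (Lyz2, Tyrobp, Csf1r and Laptm5) and 2 were higher (Cd68 and Cd14) in dKO in ethanol, against 14.1% and 19.5% of all genes. The Tyrobp call was lost without the 2 deviating ethanol arrays (limma adjusted p = 0.174) and in several fits without 1 ethanol array. The summed linear level of the 11 was 284 to 757 in wild-type and 290 to 373 in dKO ethanol arrays, and without Lyz2 it was 175 to 285 and 255 to 349. The brightest genes in the dKO sum without Lyz2 were Cd68 and Cd14 (ethanol means of 6.95 and 6.11 log2), both higher in dKO. Tyrobp, Csf1r and Laptm5, lower in dKO, weigh less in it (3.19, 4.47 and 3.82 log2). None of the 11 was called with DP in either genotype (limma; none had an unadjusted p below 0.05). The part of such cells in the genotype difference of the chemokines was not tested. Endothelial markers were near blank in all groups for 7 of 8 genes.

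Epithelial cells are another known source of Cxcl5, Ccl20 and Cx3cl1. Of 8 epithelial markers, 5 were lower in dKO in ethanol and 3 under DP (14.1% and 16.9% of all genes were called lower), and their summed linear level was 392 to 436 in wild-type and 173 to 211 in dKO ethanol arrays. With DP the sums were 703 to 817 and 300.1 to 347. Krt19 was the only marker called with DP in either genotype, against 4.73% of all genes in wild type and 1.5% in dKO. Its mean went from 6.95 to 8.96 log2 in wild type. Of the 8 markers, 6 had a negative DP change in wild type and 4 in dKO. The Krt19 genotype call in ethanol was lost without the 2 deviating ethanol arrays (limma adjusted p = 0.0519). That of Epcam was lost with averaged probe sets (0.292). The defining epithelial gene Cdh1 (E-cadherin) was near blank, with group means of 3.06 to 3.37 log2, and Epcam had group means of 3.83 to 4.88 log2. The keratin genes Krt18 and Krt8, which embryonic fibroblasts in culture can also express, were lower in ethanol by 2.04 ± 0.19 and 1.52 ± 0.21 log2. Krt19 rose with DP by 2.01 ± 0.17 log2 in wild type (adjusted p = 7.11e-06) and by 1.43 ± 0.17 in dKO (0.000403). Whether these genes and the chemokines came from the same cells was not tested.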

How the data were processed

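RNA of 12 cultures was measured on Affymetrix arrays, 3 for each of 4 groups taken from the labels. The deposited values are log2 intensities per probe set. The authors produced them by RMA with Expression Console 1.1 from Affymetrix, as the submitters' processing notes list. RMA sets background, scale and probe summary and compresses differences of dim genes. Of 45141 probe sets, 104 were controls and 28898 had exactly 1 gene symbol (28689 updated through the gene identifier, 209 kept). Another 551 listed several symbols and 15588 no symbol, and these were not used. Each of 17097 genes was represented by its brightest probe set on average, 7180 of them out of several.

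All genes were fitted with limma 3.58.1 in R 4.3.3 (lmFit and eBayes, 4 group means over 12 arrays, no block). Benjamini-Hochberg adjustment ran over all genes of each of 5 contrasts, and an adjusted p under 0.05 was called. Standard errors are limma's. The fit was tested on simulated data. Tables and figures used Python 3.11.15, pandas 2.3.3, numpy 2.4.6 and matplotlib 3.10.9. Dim genes were kept. Named genes were the 10 members, up to 4 called members of each other list and contrast with the largest change (the text gives some), the 3 nearest profiles of each called member (the text gives 3 or 1) and Crebbp. Members and lists were chosen with earlier results of these data known, and chromosomal neighbours, Adam10, Adam17 and Cxcl2 were chosen after values were seen.

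The MEF number in the labels pairs treatments within a genotype, and deviations of paired arrays correlated at 0.06 to 0.42 in wild type and 0.04 to 0.36 in dKO over 8917 genes. Alternatives were the MEF line as block, an intensity trend in eBayes, median centring, cyclic loess, omission of the 40% dimmest genes, averaged probe sets, fits of only the arrays compared, a fold of at least 1.5, and leaving out each array or the 2 deviating ethanol arrays.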

Additional observations from a re-analysis of the deposited data

How the results depend on the processing

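Of 24 member differences called, 467 of 480 refits kept direction and call, 13 lost the call and none reversed. Of 26 not called, 474 of 510 refits were unchanged, 7 gained the call and 29 reversed. The number of members called with DP in dKO was 2, and 1 after cyclic loess and with only the arrays compared, where 142 rather than 256 of all genes passed. Leaving out 1 array gave 3 to 4 members called with DP in wild type, 1 to 2 with DP in dKO, 8 to 9 by genotype in ethanol, 8 to 10 under DP and 0 to 0 for the difference of DP effects. Over all genes, 538 rather than 808 passed with DP in wild type without wild-type DP array 4, and 153 and 160 with DP in dKO without dKO DP array 1 or 6. With the MEF line as replicate block, the counts were 5, 2, 9, 9 and 0, the pairing adding Cxcl5 with DP in wild type (adjusted p = 0.0299, limma) and changing no other member's call. Scaling alternatives moved the median of all genes by less than 0.1 log2.

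Reversals were of uncalled values near 0. Without the 2 deviating ethanol arrays, DP changes in wild type were 0.000979 for Ccl5, 0.0196 for Cxcl16 and 0.139 for Cx3cl1. In dKO that of Cxcl16 was 0.197, and 0.0388 after cyclic loess. For the difference of DP effects, median centring gave 0.00345 for Ccl5 and 0.0257 for Cxcl12, and the mean of probe sets gave -0.0741 for Cxcl16. Leaving out 1 array gave DP changes in wild type of -0.302 to 0.000979 for Ccl5, -0.203 to 0.0196 for Cxcl16 and -0.342 to 0.139 for Cx3cl1. In dKO it gave -0.0689 to 0.326 for Cxcl10, -0.404 to 0.129 for Cxcl12 and -0.262 to 0.197 for Cxcl16. The difference of DP effects ranged from -0.295 to 0.125 for Ccl5, -0.355 to 0.178 for Cxcl12, -0.162 to 0.297 for Cxcl16 and -0.416 to 0.0653 for Cx3cl1. The cause was not tested. Among other named genes, 1536 of 1611 refits kept the call and 75 lost it. Levels close to the blank controls limit what can be said of Ccl20, Cxcl1 and Cxcl5 in dKO.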
